A study of Mus musculus with 6 samples.

Results

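Potassium channel genes were taken as the rows of the count table whose symbol is Kcn followed by letters for the family and a number for the member, which leaves out antisense symbols such as Kcnq1ot1. The rule gave 92 of the 23420 genes, in 20 symbol families. They code for the pore-forming and accessory subunits of 5 broad kinds of channel: 40 voltage-gated pore subunits, 11 voltage-gated accessory subunits, 12 calcium- and sodium-activated channel subunits, 15 inward rectifiers and 14 two-pore domain channels.

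Messenger RNA was sequenced in bulk from fetal mouse kidney cells at embryonic day 18.5. The embryos came from wild-type females mated with males heterozygous for Six2-GFP, a transgene that lights up the cap mesenchyme, where nephron progenitors lie. Kidneys of transgenic embryos were dissociated together and sorted into cells with GFP (Six2-high) and cells without it (Six2-low), so that both fractions come from transgene carriers. The GFP gate was set on kidneys of embryos without the transgene, and scatter gates were used against red blood cells. Each fraction has 3 libraries, from 3 preparations that each gave 1 library of both fractions. Preparation 1 carries the title tag 14_6 and the TRI purification kit. Preparations 2 and 3 share the tag 17_7, with the Norgen kit for 2 and the TRI kit for 3. The tags are read here as dates, with 17_7 as the later one, which the titles themselves do not state. The labels do not say whether preparations 2 and 3 came from separate animals, so p-values measure the spread between these libraries, which may be technical.

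Six2 itself, the check of the sort, had 848, 1478 and 1343 CPM, the count scaled to a common library size after TMM normalisation, in the Six2-high libraries, against 23.3, 11.2 and 11.1 CPM in the Six2-low libraries. Library totals were 23535399 to 28466419 counts in Six2-high and 23995694 to 29791421 in Six2-low, and the channel genes took 0.0252 to 0.0314% of the counts in Six2-high and 0.0510 to 0.0535% in Six2-low. Six2-high library 3 stood apart by holding 9.59% of its counts in the ribosomal transcript Rn45s, against at most 0.676% in any other library. Summed markers of 8 cap mesenchyme genes averaged 3814 CPM in Six2-high, against 252 CPM in Six2-low, whereas 9 loop of Henle and distal tubule genes summed to 8.17 CPM in Six2-high, against 883 CPM in Six2-low. The sum over 7 podocyte genes differed less, at 773.8 CPM in Six2-high, against 1091 CPM in Six2-low. Of these genes 1 rose and 6 fell, and their median log2 fold change (Six2-high minus Six2-low) was -3.37. Summed over 8 stroma genes the level was 212.6 to 273.6 CPM in Six2-high, against 2133 to 2566 CPM in Six2-low, and 1 of them rose while 7 fell. Six2-low is a mixture of every other cell of the kidney, and in bulk RNA fewer cells of a type and less RNA per cell cannot be told apart.

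Potassium channels let potassium pass down its gradient and set the resting voltage of cells. Voltage-gated channels open on depolarisation, calcium- and sodium-activated ones follow the ions inside the cell, and inward rectifiers and two-pore channels conduct at rest. In the mature nephron, inward rectifiers and two-pore channels recycle potassium across the tubule membranes, which keeps the sodium pump and salt transporters running, and secrete it into urine.

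Six2-high libraries held less channel RNA than Six2-low libraries, and the gap lay in inward rectifiers and two-pore channels. The 92 genes summed to 273.6, 324.2 and 291.5 CPM in the Six2-high libraries, against 493.7, 500.4 and 489.7 CPM in the Six2-low libraries. Inward rectifiers summed to 15.6, 16.6 and 19.4 CPM in Six2-high and to 172.6, 167.9 and 171.3 CPM in Six2-low, so that the Six2-high mean was 10.1% of the Six2-low mean. Two-pore channels summed to 26.7, 22.4 and 23.8 CPM in Six2-high, against 96.3, 87.6 and 93.8 CPM in Six2-low. Both sums lay far below those of Six2-low in every preparation. Voltage-gated pore subunits gave 129.7, 188.9 and 155.1 CPM in Six2-high and 143.6, 164.6 and 147.6 CPM in Six2-low, and these ranges overlapped. Voltage-gated accessory subunits ran between 45.7 and 49.3 CPM in Six2-high and between 37.8 and 39.7 CPM in Six2-low. Calcium- and sodium-activated subunits ran between 47.1 and 53.4 CPM in Six2-high and between 39.2 and 42.6 CPM in Six2-low. As shares of the summed channel CPM, which are not adjusted for gene length, inward rectifiers made up 5.12 to 6.65% in Six2-high and 33.6 to 35% in Six2-low, and voltage-gated pore subunits 47.4 to 58.3% in Six2-high and 29.1 to 32.9% in Six2-low.

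**Figure D1:**
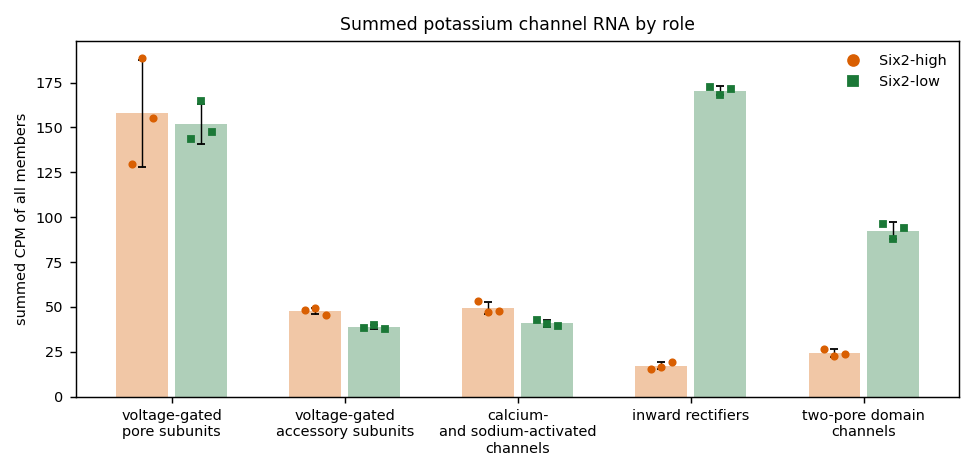
Summed CPM of the channel genes by kind of channel, with 1 point per library, bars for the mean, error bars for the SD of 3 libraries, and Six2-high left of Six2-low. Inward rectifiers and two-pore channels lie at 15.6 to 26.7 CPM in Six2-high and at 87.6 to 172.6 CPM in Six2-low, while the voltage-gated pore subunits of both fractions overlap.

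Fractions were compared over all genes with edgeR's quasi-likelihood test, and genes with a Benjamini-Hochberg adjusted p under 0.05 are called higher or lower in Six2-high. Of the 92 channel genes, 69 passed the filter on low counts and were tested, 14 were higher, 32 were lower and 23 were not called. Over all 15347 tested genes, 21.4% were higher and 28.7% were lower. Without Six2-high library 3 the channel genes gave 11 higher and 29 lower of 71 tested, and all genes 2512 and 4111 of 15680. Without the transcripts Rn45s and Lars2, both high in that library, the channel genes gave 14 and 32. All genes gave 3289 and 4405 of 15357 in that fit. The median log2 fold change (Six2-high minus Six2-low, as all fold changes here) was -0.77 over the 69 channel genes and 0.05 over all tested genes. The 3 Six2-high libraries lay all above the 3 Six2-low libraries for 15 of the 69 and all below them for 35, and the fractions did not overlap for 60.0% of all tested genes. The filter passes a gene that is high in 1 fraction alone, so these counts describe the genes that passed. By kind, 1 inward rectifier rose and 7 fell of 11 tested, and 1 two-pore channel rose and 4 fell of 8. Among voltage-gated pore subunits 8 rose and 10 fell of 29, among their accessory subunits 2 rose and 5 fell of 10, and among calcium- and sodium-activated subunits 2 rose and 6 fell of 11. The medians of the log2 fold changes were -2.92 for inward rectifiers, -1.24 for two-pore channels, -0.41 for voltage-gated pore subunits, -0.48 for accessory subunits and -0.44 for calcium- and sodium-activated subunits. No tested member of the Kcnc, Kcnd, Kcne, Kcnn, Kcns or Kcnt families rose, and no tested member of the Kcna or Kcnab families fell.

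**Figure D2:**
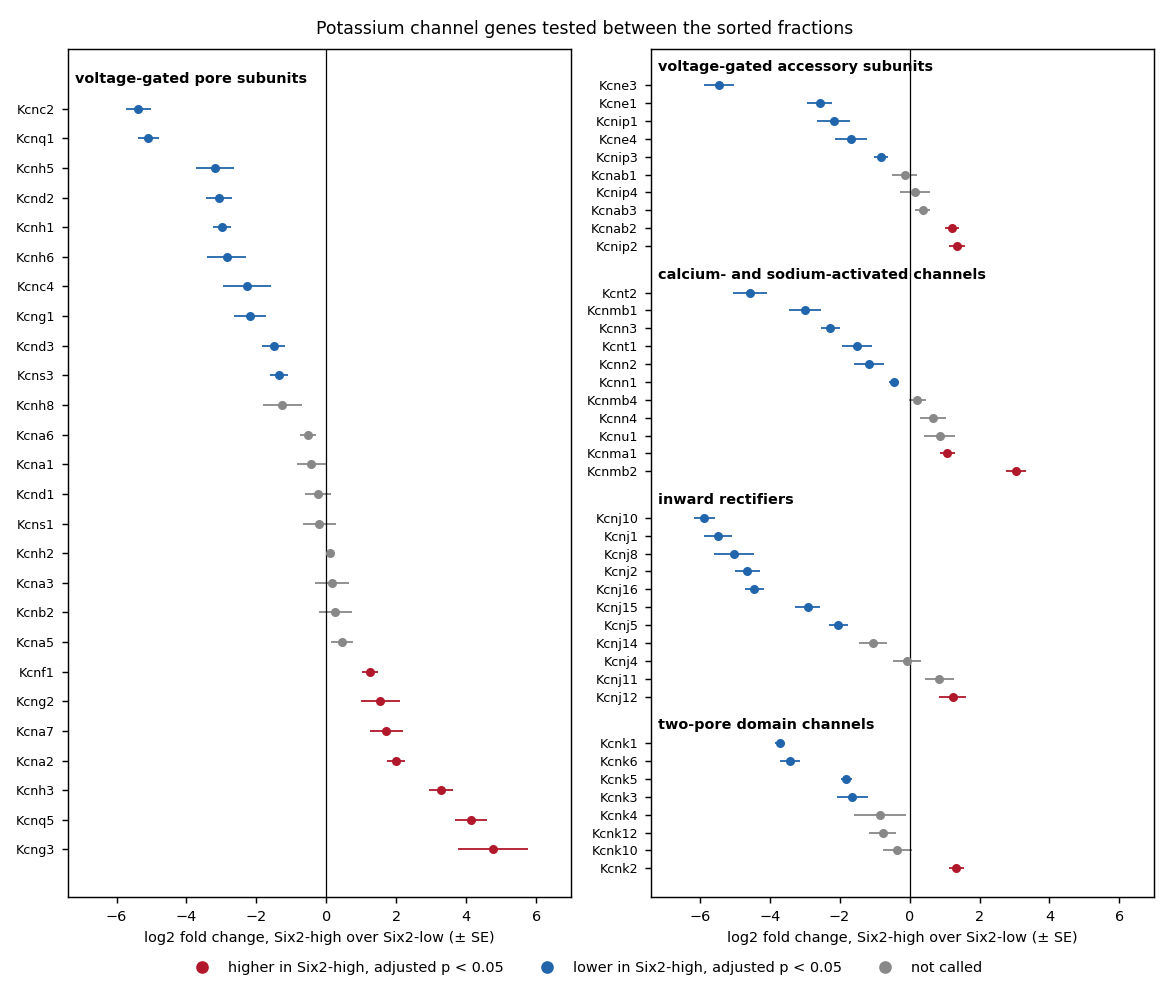
Log2 fold change (Six2-high minus Six2-low) with its standard error for 66 of the 69 tested channel genes, grouped by kind of channel, red for higher, blue for lower and grey for not called. Values run between -5.87 for Kcnj10 and 4.76 for Kcng3, and the inward rectifiers have most of their members on the negative side.

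Inward rectifiers of the distal nephron were low in Six2-high, below 1 CPM for Kcnj10 and Kcnj1 and at 1.69 to 3.82 CPM for Kcnj16. Kcnj10 (chr1:172341210-172374085, mm10), the Kir4.1 pore of the basolateral membrane of the distal tubule, had 0.208, 0.337 and 0.540 CPM in the Six2-high libraries, against 22.6, 19.7 and 19.6 CPM in the Six2-low libraries. Kcnj16 (chr11:110968033-111027968), the Kir5.1 subunit that joins Kir4.1 in that membrane, had 3.82, 1.69 and 3.24 CPM in Six2-high and 69.7, 58.9 and 63.2 CPM in Six2-low. Kcnj1 (chr9:32372493-32399197), the ROMK channel through which the thick ascending limb and collecting duct secrete potassium, had 0.556, 0.126 and 0.736 CPM in Six2-high and 22.4, 19.0 and 22.0 CPM in Six2-low. For these 3 genes every Six2-low library lay far above every Six2-high library. Kcnj10 fell by 5.87 on the log2 scale (SE 0.29, edgeR adjusted p = 1.7e-06), Kcnj1 by 5.48 (SE 0.40, adjusted p = 9.3e-06) and Kcnj16 by 4.44 (SE 0.27, adjusted p = 3.8e-06). Six2-high means were 1.75% of the Six2-low mean for Kcnj10, 2.24% for Kcnj1 and 4.56% for Kcnj16. All 9 loop and distal tubule markers fell, with sums of 3.96 to 11.6 CPM in Six2-high, against 755.7 to 962.1 CPM in Six2-low, a Six2-high mean at 0.926% of Six2-low. All 9 ureteric bud and collecting duct markers fell too, with sums of 17.9 to 24.0 CPM in Six2-high, against 778.4 to 954.1 CPM in Six2-low, or 2.38%. The part of these markers in the fall of the 3 channels was not tested.

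The promoters of Kcnj16 and Kcnj10 are shown as the 150 bases before the start of transcription in RefSeq (build GRCm38.p6), because both genes fell while their base composition differs. Capitals mark CpG pairs, and each sequence runs on the strand of its gene. The Kcnj16 window, the first of 4 that the table lists for this gene, is chr11:110967883-110968032 on the plus strand, and the Kcnj10 window is chr1:172341060-172341209 on the plus strand.
Kcnj16: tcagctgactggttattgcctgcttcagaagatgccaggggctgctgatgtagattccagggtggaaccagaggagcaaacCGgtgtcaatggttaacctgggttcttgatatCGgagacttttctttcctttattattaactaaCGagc
Kcnj10: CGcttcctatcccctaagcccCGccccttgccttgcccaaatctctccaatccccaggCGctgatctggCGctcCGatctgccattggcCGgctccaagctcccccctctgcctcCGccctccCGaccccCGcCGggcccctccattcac
The Kcnj16 window holds 3 CpG pairs and 46.7% G and C, and the Kcnj10 window holds 10 CpG pairs and 68.7% G and C. Near the start of Kcnj16, at bases -14 to -9, stand the letters ATTAAC, which read GTTAAT on the other strand, the half-site of the HNF1 factors of tubule epithelium. Searched on both strands over 250 bases before the start, this half-site was in the promoters of 2 of the 25 lower channel genes that have a promoter in the table, in 0 of 11 higher ones, and in 7.49% of all 27025 genes of the table. A match is a run of letters and was not tested as a binding site.

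The other inward rectifiers that fell have their known places in proximal tubule, vessel and excitable cells. Kcnj15, Kir4.2 of the proximal tubule, had 2.12, 5.10 and 5.50 CPM in Six2-high and 22.5, 39.2 and 33.3 CPM in Six2-low (log2 fold change -2.91, SE 0.36, edgeR adjusted p = 0.00021). Kcnj8 (chr6:142564837-142571614), the Kir6.1 pore of the ATP-sensitive channel of smooth muscle and pericytes, had 1.04, 0.0843 and 0.245 CPM in Six2-high and 19.3, 13.8 and 14.7 CPM in Six2-low. It fell by 5.01 (SE 0.57, adjusted p = 0.00013), and it fell by 6.61 without Six2-high library 1, the highest of its fraction. Its regulatory partner Abcc9, the SUR2 subunit, lies 16.2 kb away and fell with it, by 4.12 on the log2 scale. Markers of smooth muscle and pericytes summed to 121.3, 73.5 and 63.9 CPM in Six2-high and to 619.3 to 652.0 CPM in Six2-low, all 7 tested markers of 8 fell (Ren1 had no counts in any library), and Six2-high library 1 was also the highest of its fraction in this sum. Whether the markers account for the Kcnj8 values was not tested. Kcnj2, the classical Kir2.1 rectifier, had 0.0982 to 0.174 CPM in Six2-high and 3.27 to 4.44 CPM in Six2-low and fell by 4.64. Kcnj5, a subunit of the G protein-gated channel, had 1.22 to 2.43 CPM in Six2-high and 7.29 to 7.64 CPM in Six2-low and fell by 2.04. Neither gene had overlapping fractions.

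Kcnj12 was the inward rectifier that rose, at a low level. This gene, for the Kir2.2 strong rectifier, had 1.36, 0.843 and 1.42 CPM in the Six2-high libraries, against 0.333, 0.585 and 0.613 CPM in the Six2-low libraries. Its log2 fold change was 1.23 (SE 0.38, edgeR adjusted p = 0.025), and the call was lost in 9 of 17 alternatives, among them leaving out any 1 library other than Six2-high 2, with adjusted p between 0.055 and 0.089. Kcnj11, the Kir6.2 pore of the ATP-sensitive channel of beta cells, was not called, with a mean of 3.05 CPM in Six2-high, against 1.68 CPM in Six2-low (adjusted p = 0.12). Its regulatory partner Abcc8, the SUR1 subunit 3.76 kb away, rose by 1.64 on the log2 scale (adjusted p = 0.0047), a call lost without both libraries of preparation 2 (adjusted p = 0.062). Kcnj14 and Kcnj4 were not called either, with log2 fold changes of -1.05 and -0.08.

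Two-pore channels split between 4 that fell and 1 that rose. Kcnk1 (chr8:125995170-126030685), the TWIK-1 channel, had 3.96, 3.04 and 3.39 CPM in Six2-high and 46.6, 42.4 and 46.9 CPM in Six2-low. Kcnk5 (chr14:20140057-20181809), the alkaline-activated TASK-2 channel of the proximal tubule, had 11.1, 8.14 and 8.64 CPM in Six2-high and 32.8, 30.9 and 33.9 CPM in Six2-low. Kcnk6, the TWIK-2 channel, had 0.556, 0.464 and 0.638 CPM in Six2-high and 7.36, 5.53 and 4.93 CPM in Six2-low. No Six2-high library reached the lowest Six2-low library for these genes. Kcnk1 fell by 3.71 (SE 0.15, edgeR adjusted p = 7.8e-07), Kcnk6 by 3.42 (SE 0.29, adjusted p = 2.3e-05) and Kcnk5 by 1.81 (SE 0.16, adjusted p = 2.6e-05). Kcnk3, the acid-sensitive TASK-1 channel, fell by 1.64 (adjusted p = 0.014), a call lost without both libraries of preparation 3 (adjusted p = 0.087) and with the same-date libraries summed (0.073). Proximal tubule markers summed to 58.6, 59.3 and 93.9 CPM in Six2-high and to 1086, 1418 and 1325 CPM in Six2-low, a Six2-high mean at 5.53% of Six2-low, and all 9 fell. The same measure was 28.5% for Kcnk5 and 7.63% for Kcnk1. The markers' part in these results was not tested. Kcnk2 (chr1:189207930-189402273), the mechanosensitive TREK-1 channel, went the other way, with 9.31, 7.76 and 8.59 CPM in Six2-high and 4.07, 3.08 and 3.00 CPM in Six2-low. Every Six2-high library lay above every Six2-low library, and the log2 fold change was 1.34 (SE 0.21, adjusted p = 0.00081). Kcnk10, Kcnk12 and Kcnk4 were not called, with means under 1 CPM in both fractions.

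**Figure D3:**
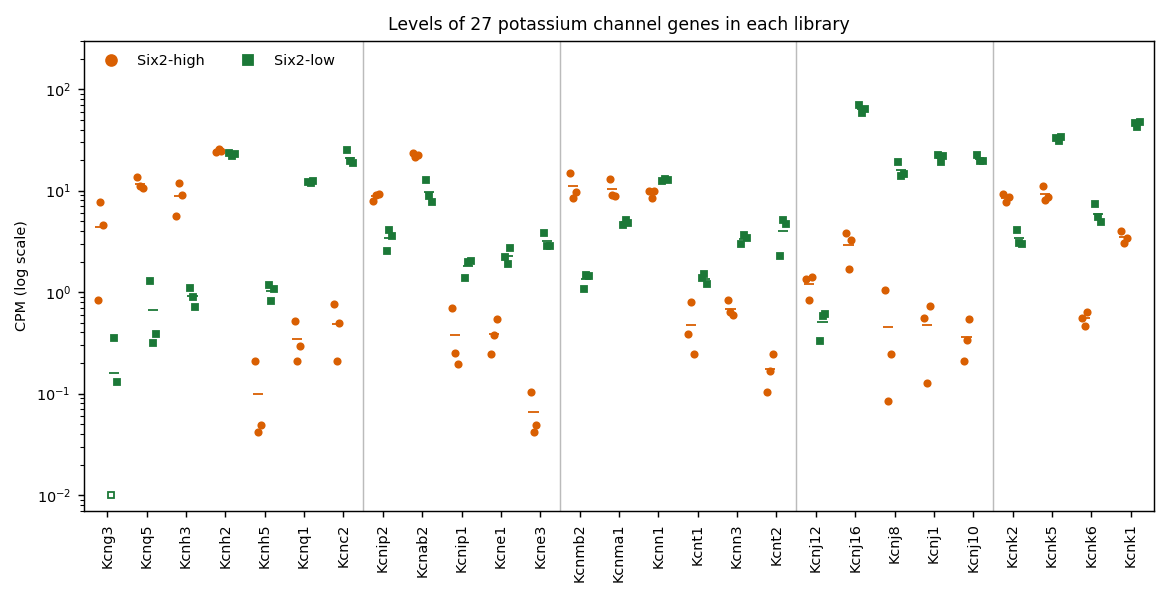
CPM per library on a log axis for channel genes named by rule, with a line at the mean of 3 libraries and Six2-high left of Six2-low for each gene. The open square at 0.01 is a library with 0 counts, Six2-low 1 for Kcng3; Kcnj10, Kcnj1 and Kcnc2 lie below 1 CPM in every Six2-high library and at 18.5 CPM or more in every Six2-low library.

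Among voltage-gated pore subunits, both directions were well filled, and the 2 with the steepest rise were a silent subunit and an M-type channel. Kcnq5 (chr1:21398403-21961942), one of the pores of the slow M current of neurons, had 13.5, 11.2 and 10.6 CPM in Six2-high and 1.29, 0.312 and 0.387 CPM in Six2-low. Kcng3 (chr17:83585957-83631895), which forms no channel alone and modifies the pores it joins, had 0.834, 7.76 and 4.56 CPM in Six2-high and 0, 0.351 and 0.129 CPM in Six2-low. Six2-high library 1 was the lowest of its fraction for Kcng3, and still above all Six2-low libraries. Kcnq5 rose by 4.14 (SE 0.46, edgeR adjusted p = 0.00012), and by 5.00 without Six2-low library 1. Kcng3 rose by 4.76 (SE 1.00, adjusted p = 0.0042), and by 4.05 without Six2-high library 2, 4.155 without Six2-low library 1 and 5.90 without Six2-low library 2. Its call was lost without both libraries of preparation 3 (log2 fold change 4.59, adjusted p = 0.062).

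The promoters of these 2 genes are shown as the counterpart to the pair that fell, again as 150 bases before the RefSeq start in GRCm38.p6 on the strand of the gene, with CpG pairs in capitals. The Kcng3 window is chr17:83631896-83632045 and the Kcnq5 window, the first of 2 listed, is chr1:21962651-21962800, both on the minus strand.
Kcng3: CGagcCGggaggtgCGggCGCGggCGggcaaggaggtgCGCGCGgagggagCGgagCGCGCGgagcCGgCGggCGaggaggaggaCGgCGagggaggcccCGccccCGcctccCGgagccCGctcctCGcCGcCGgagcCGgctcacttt
Kcnq5: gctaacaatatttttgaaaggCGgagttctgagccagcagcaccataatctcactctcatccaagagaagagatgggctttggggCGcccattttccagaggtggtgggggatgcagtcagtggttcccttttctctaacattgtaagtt
The Kcng3 window holds 26 CpG pairs and the Kcnq5 window 2, a wider range than in the 2 windows shown for the pair that fell. The range rests on the windows shown, as Kcnq5 and Kcnj16 have others listed. The Kcnq5 window does not adjoin the gene coordinates given above, which end downstream of its RefSeq start. Over 300 bases, 250 before and 50 after the start, the median was 11.5 CpG pairs for the 11 higher channel genes with a promoter, 12.0 for the 25 lower ones and 7.0 for all genes of the table. The letters GGGCGG, the core of a GC box, stood on either strand before the start of 45.5% of the higher, 64.0% of the lower and 35.4% of all genes. The composition of promoters was not tested between channel genes that rose and fell.

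Other silent subunits, which like Kcng3 form no channel alone, went both ways. They were named after their values were seen, as were the other members below that the selection by size of change did not take. Kcnf1 had 9.17, 6.91 and 6.23 CPM in Six2-high and 2.96 to 3.23 CPM in Six2-low and rose by 1.25. Amigo1, a cell adhesion protein that is an auxiliary subunit of voltage-gated channels, had 47.2, 77.8 and 69.1 CPM in Six2-high and 15.2, 13.3 and 13.2 CPM in Six2-low and rose by 2.22 (SE 0.19, adjusted p = 2.7e-05). For Kcng3 and Amigo1, Six2-high library 1 was the lowest and library 2 the highest of the fraction. The same order held for Six2 itself and for the cap mesenchyme sum, so it is not particular to these genes. Kcng1 fell by 2.18, and fell by 2.79 without both libraries of preparation 1, and Kcns3 by 1.35, the second a call lost without both libraries of preparation 3 (adjusted p = 0.053). Kcng2 had a log2 fold change of 1.54 (adjusted p = 0.047), lost in 12 of 18 alternatives, which include leaving out any single library but Six2-high 1, and was 0.86 without Six2-high library 3.

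Kcnh3, Kcna2 and Kcna7 rose as well. Kcnh3, an EAG-like channel of the forebrain, had 5.59, 11.9 and 8.98 CPM in Six2-high and 1.11, 0.896 and 0.710 CPM in Six2-low (log2 fold change 3.28, SE 0.35, edgeR adjusted p = 8.0e-05). Kcna2, the Kv1.2 channel of axons, had 5.11, 3.88 and 3.98 CPM in Six2-high and 1.22, 1.05 and 0.968 CPM in Six2-low and rose by 2.00. Kcna7 rose by 1.71 at levels below 1 CPM, a call lost in 8 of 17 alternatives, among them leaving out Six2-high library 3 or Six2-low library 1 or 2. Neither Kcnh3 nor Kcna2 overlapped between fractions.

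Kcnc2 and Kcnq1 led the voltage-gated pores that fell. Kcnc2 (chr10:112271121-112467024), the fast Kv3.2 channel known from interneurons, had 0.764, 0.211 and 0.491 CPM in Six2-high and 25.0, 19.6 and 18.5 CPM in Six2-low. Kcnq1 (chr7:143106362-143427042), the pore that pairs with the Kcne proteins in heart and epithelia, had 0.521, 0.211 and 0.294 CPM in Six2-high and 12.2, 11.8 and 12.4 CPM in Six2-low. Both fractions stood far apart, and the genes fell by 5.38 (SE 0.36, edgeR adjusted p = 6.2e-06) and 5.09 (SE 0.31, adjusted p = 3.8e-06). Kcnq1 shares 121 exon bases with its antisense gene Kcnq1ot1, at 13.2 CPM in Six2-high, against 10.9 CPM in Six2-low. The sources used here do not say whether counting used strand, so the Kcnq1 level is uncertain by the reads of those bases.

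Other voltage-gated pores fell too, at lower levels. Kcnh5, an ether-a-go-go channel, had 0.208, 0.0422 and 0.0491 CPM in Six2-high and 1.18, 0.819 and 1.06 CPM in Six2-low and fell by 3.19, and fell by 4.37 without Six2-high library 1. Its relatives Kcnh1 and Kcnh6 fell by 2.98 and 2.85, and Kcnh6 fell by 3.46 without Six2-high library 2. Kcnd2, a Kv4 pore of the fast transient current, fell by 3.08, and Kcnc4, another Kv3 pore, by 2.26, a call lost without Six2-high library 3 or Six2-low library 3. Kcnd3, the other Kv4 pore that fell, had 10.9, 5.48 and 5.40 CPM in Six2-high and 14.8, 24.8 and 22.8 CPM in Six2-low (log2 fold change -1.51, SE 0.32, edgeR adjusted p = 0.0042). Its gap between fractions was smallest in preparation 1, at -0.44 on the log2 CPM scale, against -2.16 and -2.06 in preparations 2 and 3. The Kcnd3 call was lost without both libraries of preparation 2 or of preparation 3 and with the same-date libraries summed (adjusted p = 0.067), and its log2 fold change was -2.17 without both of preparation 1.

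Kcnh2 (chr5:24319589-24351604), the hERG channel that repolarises the heart, had the highest CPM per kb of exon of the voltage-gated pores over all 6 libraries, and its fractions lay close together. It had 23.9, 25.7 and 24.7 CPM in Six2-high and 23.7, 22.1 and 22.9 CPM in Six2-low. The log2 fold change was 0.11 (SE 0.12, edgeR adjusted p = 0.45), and it became -0.04 when libraries were scaled by their totals, a scaling that moved the median of all genes to -0.11. Of the other pores that were not called, Kcna1, Kcna3, Kcna5, Kcna6, Kcnb2, Kcnd1, Kcnh8 and Kcns1 had log2 fold changes between -1.26 for Kcnh8 and 0.45 for Kcna5.

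Accessory subunits of voltage-gated channels went both ways. Kcnab2, the Kv1 beta subunit with an oxidoreductase fold, had 23.7, 21.4 and 22.3 CPM in Six2-high and 12.7, 8.77 and 7.68 CPM in Six2-low. Kcnip2, the calcium-binding partner of Kv4 known from heart, had 7.96, 9.15 and 9.18 CPM in Six2-high and 2.55, 4.13 and 3.58 CPM in Six2-low. Both were higher in every Six2-high library, with log2 fold changes of 1.21 (SE 0.20, edgeR adjusted p = 0.0012) and 1.35 (SE 0.23, adjusted p = 0.0013). The Kcne family, single-pass proteins that tune Kcnq1 and other pores, had 3 tested members and all fell. Kcne3, which holds Kcnq1 open in epithelia, had 0.104, 0.0422 and 0.0491 CPM in Six2-high and 3.81, 2.85 and 2.87 CPM in Six2-low. Kcne1, the partner of Kcnq1 in heart and proximal tubule, had 0.243, 0.379 and 0.540 CPM in Six2-high and 2.22, 1.87 and 2.74 CPM in Six2-low. Kcne3 fell by 5.45 (SE 0.42, edgeR adjusted p = 1.3e-05) and Kcne1 fell by 2.58 (SE 0.37, adjusted p = 0.00051). Kcne4 fell by 1.68 (adjusted p = 0.013), a call lost without Six2-low library 3 (adjusted p = 0.057), without both libraries of preparation 2 or 3 (0.12 each) and with the same-date libraries summed (0.10). Kcnip1, another Kv4 partner, had 0.695, 0.253 and 0.196 CPM in Six2-high and 1.37, 1.99 and 2.03 CPM in Six2-low and fell by 2.17, and fell by 2.98 without Six2-high library 1. Its call was lost without both libraries of preparation 2 or of preparation 3, with adjusted p of 0.060 and 0.072, and with the same-date libraries summed (0.062). Kcnip3 fell by 0.83, a call lost in the same 3 cases, and Kcnab1, Kcnab3 and Kcnip4 were not called, with log2 fold changes of -0.14, 0.38 and 0.15.

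The large-conductance calcium-activated channel rose in both its pore and one beta subunit. Kcnma1 (chr14:23289431-24014491), the BK pore, had 12.9, 9.06 and 8.83 CPM in Six2-high and 4.62, 5.18 and 4.81 CPM in Six2-low (log2 fold change 1.08, SE 0.21, edgeR adjusted p = 0.0027). Kcnmb2 (chr3:31902507-32200180), the beta subunit that makes BK inactivate, had 14.8, 8.43 and 9.72 CPM in Six2-high and 1.07, 1.48 and 1.45 CPM in Six2-low (log2 fold change 3.04, SE 0.29, adjusted p = 4.3e-05). Both genes were highest in Six2-high library 1, and neither overlapped between fractions. Kcnmb1, the beta subunit of smooth muscle, had 0.0422 to 0.104 CPM in Six2-high and 0.663 to 0.740 CPM in Six2-low and fell by 3.01. Kcnmb4, the beta subunit of brain, was not called (log2 fold change 0.22), nor was Kcnu1, a channel of sperm (0.86).

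Small-conductance and sodium-activated channels were lower. Kcnt2, the sodium-activated Slick channel, had 0.104, 0.169 and 0.245 CPM in Six2-high and 2.26, 5.11 and 4.71 CPM in Six2-low and fell by 4.55 (SE 0.48, edgeR adjusted p = 8.4e-05). Kcnn3, a small-conductance channel, had 0.834, 0.632 and 0.589 CPM in Six2-high and 2.96, 3.62 and 3.42 CPM in Six2-low and fell by 2.26 (SE 0.28, adjusted p = 0.00020). In neither gene did a Six2-high library reach the Six2-low range. Kcnt1, the Slack channel, had 0.382, 0.801 and 0.245 CPM in Six2-high and 1.37, 1.52 and 1.19 CPM in Six2-low, with a call (log2 fold change -1.49, adjusted p = 0.019) lost in 6 of 17 alternatives. Kcnn1 had 9.83, 8.52 and 9.87 CPM in Six2-high and 12.5, 12.9 and 12.8 CPM in Six2-low, a small difference of -0.44 (SE 0.15, adjusted p = 0.037). The Kcnn1 fractions did not overlap but its call was lost in 10 of 18 alternatives, among them leaving out any single library other than Six2-high 1, with adjusted p between 0.051 and 0.12. Kcnn2 (log2 fold change -1.17, adjusted p = 0.050) lost its call in 11 of 17 alternatives, among them the fit with a replicate block for preparation (adjusted p = 0.078) and leaving out Six2-high 2 or 3 or Six2-low 2 or 3. Kcnt1 lost its call without Six2-high 1, Six2-high 3 or Six2-low 2, at adjusted p between 0.052 and 0.060.

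Kcnn4, the intermediate-conductance channel known as the Gardos channel of red cells, changed the sign of its difference between preparations. It had 8.41, 14.04 and 13.7 CPM in Six2-high and 12.4, 5.50 and 4.93 CPM in Six2-low. Six2-low library 1 lay within the Six2-high range while the other Six2-low libraries lay below it. The difference between fractions on the log2 CPM scale was -0.55 in preparation 1 and 1.34 and 1.46 in preparations 2 and 3, and the gene was not called (log2 fold change 0.66, edgeR adjusted p = 0.17). Erythroid markers, of which 5 were in the table and all 3 tested fell, summed to 18.2, 5.35 and 9.92 CPM in Six2-high and to 1614, 134.4 and 135.1 CPM in Six2-low, so Six2-low library 1 stood apart in both, although scatter gates were used against red blood cells. Endothelial markers, at 23.3 to 27 CPM in Six2-high, were also raised in that library, with 1402, 802.1 and 803.2 CPM in Six2-low. Immune markers, at 8.17 to 23.1 CPM in Six2-high, had 269.5, 168.2 and 174.4 CPM in Six2-low. The part of these markers in the Kcnn4 values was not tested.

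Per kilobase of exon, which allows genes to be compared, the fractions had different leading channels. Among the 5 highest levels in Six2-high were 5.12 CPM per kb for Kcnh2, 4.02 for Kcnab2, 3.51 for Kcnmb2 and 3.07 for Kcnab3. In Six2-low the 5 highest were 20.3 CPM per kb for Kcnk1, 16.2 for Kcnj16, 9.56 for Kcnk5, 6.34 for Kcnj1 and 6.25 for Kcnj8. No gene stood in both lists of 5.

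Known sites of expression group the same genes in another way, through lists written from textbook knowledge but with earlier results of these data known. Of 10 channels of the adult renal epithelium, 9 were tested, 8 fell and 1, Kcnma1, rose, with a median log2 fold change of -3.71. Their summed level was 28.1 to 35.4 CPM in Six2-high and 229.0 to 239.0 CPM in Six2-low. Of 5 vascular and mural channels, all tested, Kcnj8, Kcnmb1 and Kcnj2 fell and the others, among them Kcna5, were not called. Of 25 channels best known from neurons, 16 were tested, 4 rose, among them Kcna2, Kcnh3 and Kcnq5, and 8 fell, with a median of -0.43. For comparison with these 3 lists, 21.4% of all tested genes were higher and 28.7% were lower. Nerve and glia markers, 9 in number, summed to 33.3 to 36.5 CPM in Six2-high and to 7.72 to 14.8 CPM in Six2-low. Elavl4 carried that sum with 31.5, 27.4 and 28.0 CPM in Six2-high and 2.40, 1.09 and 1.39 CPM in Six2-low, while Sox10, which defines glia of the peripheral nerve, had no counts in Six2-high. Of the 5 nerve and glia markers tested 1 rose and 3 fell, and their part in the rise of the 4 channels was not tested.

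Other genes of potassium transport were taken as a list of 54 pump, cotransporter, auxiliary and regulatory genes. Of 44 tested, 9 were higher in Six2-high and 20 were lower, and the median log2 change was -0.30. Over all tested genes 21.4% were higher and 28.7% were lower, with a median of 0.05. The genes that carry salt in the tubule fell: Slc12a1, the NKCC2 cotransporter of the thick ascending limb, had 0.799, 1.10 and 1.47 CPM in Six2-high and 190, 251 and 260.1 CPM in Six2-low, a fall of 7.73 (SE 0.24, edgeR adjusted p = 3.6e-07). Atp1b1, the beta subunit of the sodium pump, had a log2 fold change of -4.10. Fxyd4, a pump regulator of the collecting duct, fell by 6.38, and fell by 8.41 without Six2-high library 3, its highest Six2-high library. Atp12a, the colonic proton-potassium pump, fell by 4.99 and fell by 5.65 without Six2-high library 1.

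The same list held genes that rose. Slc12a2, the widely expressed NKCC1 cotransporter, had 370, 645 and 643 CPM in Six2-high and 71.8, 82.0 and 84.4 CPM in Six2-low (log2 fold change 2.80, SE 0.22, edgeR adjusted p = 1.6e-05). Fxyd6, a pump regulator of brain, had 417, 560 and 674 CPM in Six2-high and 108, 91.5 and 100.04 CPM in Six2-low (log2 fold change 2.46, SE 0.18, adjusted p = 1.1e-05). The fractions did not overlap for either gene. Dpp6, an auxiliary subunit of Kv4, rose by 1.78, while of the Kv4 pores Kcnd2 and Kcnd3 fell and Kcnd1 was not called (log2 fold change -0.24).

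Several channel genes lie next to one another, and neighbours were not always alike. Kcnj16 and Kcnj2 on chromosome 11, with a gap of 38.2 kb, both fell, as did Kcnj5 and Kcnj1 on chromosome 9, 28.1 kb apart. Kcna2 on chromosome 3 rose by 2.00, whereas Kcna3, 63.1 kb away, had a log2 fold change of 0.16 and was not called. Kcnj10 on chromosome 1 fell, and its neighbour Kcnj9 at 11.9 kb was too low to test, at 0.243 CPM in Six2-high, against 0.134 CPM in Six2-low. Kcnip1 and Kcnmb1 on chromosome 11 overlap on opposite strands, and both fell.

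Preparations were compared next, with terms for preparation and for fraction. The libraries of both fractions served as the replicates of a preparation, so each contrast rests on 1 preparation per level. Between date tags, 118 of all tested genes (0.769%) were called by edgeR's quasi-likelihood test and 0 of 69 channel genes. An unadjusted p under 0.05 was found for 3293 of all 15347 tested genes and for 7 of the 69 channel genes. Kcng3 was the nearest, lower at the first date by 2.48 on the log2 scale (edgeR adjusted p = 0.073). Between kits 0% of genes were called, and 2889 genes and 3 channel genes had an unadjusted p under 0.05. A test of whether the fractions differ by another amount at the first date, added after the data were seen, also called 0% of genes, with 1256 genes and 14 channel genes at an unadjusted p under 0.05. Kcnn4 had the smallest p of the channel genes there (log2 difference -1.97, edgeR adjusted p = 0.11), followed by Kcnd3 (1.68, adjusted p = 0.12). No other tool was run on these contrasts. The sign of the difference between fractions was the same in 3 preparations for 57 of 69 channel genes, or 82.6%, and for 80.8% of all tested genes.

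**Figure D4:**
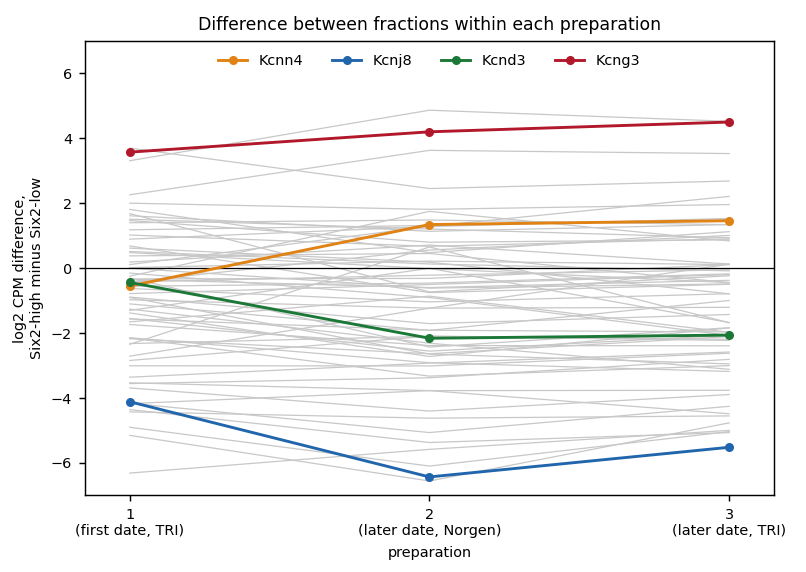
Difference between Six2-high and Six2-low (log2 CPM, prior count 2) in each preparation for 66 of the 69 tested channel genes, with 1 line per gene and Kcnn4, Kcnj8, Kcnd3 and Kcng3 in colour. Kcnn4 lies at -0.55 in preparation 1 and at 1.34 and 1.46 in preparations 2 and 3, and Kcng3 lies between 3.57 and 4.50 in all of them.

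The 23 channel genes that were not tested were near the detection limit, and 2 of them, Kcna10 and Kcnk16, had no counts in any library. Kcnv2, a silent subunit of the retina, had 0 counts in Six2-high and 26 in Six2-low, at least 7.55-fold lower in Six2-high against a floor of 3 counts over the fraction. Kcns2 had 1 count in Six2-high and 30 in Six2-low, a ratio of Six2-low over Six2-high of 26.1 with an exact 95% interval of 4.34 to 1070 that covers counting error only. Kcnj3 had 1 count in Six2-high and 15 in Six2-low, a ratio of 13.1 (2.01 to 550). Kcnh7 had 2 counts in Six2-high and 50 in Six2-low, a ratio of 21.8 (5.72 to 185), and it shares exon bases with Gca, so its reads are uncertain without strand. Kcnj13 had 7 counts in Six2-high and 34 in Six2-low and shares 623 of its 1270 exon bases with Gigyf2, at 95.7 CPM over all libraries. The others, among them Kcna4, Kcnc1, Kcng4, Kcnh4, Kcnq3, Kcnv1, Kcne2, Kcnmb3, Kcnj6, Kcnj9, Kcnk7, Kcnk9, Kcnk13, Kcnk15 and Kcnk18, had at most 23 counts in Six2-high and 26 in Six2-low.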

How the data were processed

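Polyadenylated RNA of 6 libraries was analysed from 2 deposited tables, the authors' raw counts per gene and a normalised signal. The deposited signal equals the counts divided by 1 size factor per library (largest deviation 0.000536% over 4466 genes above 1000 counts) and was used for that check alone. Per the submitters' processing notes, which state no roles, HTSeq 0.6.1p1, TopHat2 2.1.0, DESeq2, SAMtools and TopHat were used with build mm10. The sources used here name neither the annotation nor the strand setting. They do not say how reads shared by several genes were counted, which could lower members that overlap another gene.

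Counts were filtered with filterByExpr, scaled by TMM and compared between fractions with edgeR 4.0.16 (R 4.3.3) by the quasi-likelihood F test, two-sided and without a block, with Benjamini-Hochberg adjustment over 15347 genes at 0.05. CPM uses the TMM-scaled library total, and SE is that of the log2 fold change. Levels per kb use merged exon length from GENCODE M21 (mm10), found for all 92 channel genes, which also gave gene coordinates. Promoters came from RefSeq (GRCm38.p6), in which 67 of the 92 matched. Where a gene has several promoters, CpG was averaged and a motif counted if in any. Intervals of count ratios are exact (Clopper-Pearson).

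The channel genes and lists were chosen with earlier results of these data known. The genes named by rule, 27 of the members, are the 3 most positive and 3 most negative called log2 fold changes of each kind of channel at a mean of at least 1 CPM in a fraction, and the highest CPM per kb of each kind. In the potassium transport list they are the 4 most positive and 4 most negative. Other genes were named after their values were seen. Values of some genes are not reported here, and figures leave them out.

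Titles tie the fractions by preparation, and deviations from fraction means correlated across genes at 0.37, 0.42 and 0.33 within the 3 preparations. The 18 alternatives cover scaling, filter, DESeq2 1.42.0, a replicate block, a 2-fold threshold, summed same-date libraries and left-out libraries. Tested on simulated data of the fraction comparison with 15347 genes, the test recovered 63.4% of 2-fold and 91.7% of 4-fold changes, with 7.07% false calls. Each simulated set had 200 changed genes, whereas 7686 genes were called in the data. The adjustment depends on that share, so these rates may not hold for the reported calls.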

Additional observations from a re-analysis of the deposited data

How the results depend on the processing

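Over the 18 alternatives of the comparison of fractions, higher channel genes numbered 10 to 17 and lower ones 22 to 35, apart from the test against a 2-fold change, with 6 higher and 23 lower, where 5 potassium transport genes were higher. That test asks for more than a difference and so calls fewer, with 546 higher and 2662 lower over all 15347 genes. With the preparation as a replicate block, 15 of 69 channel genes were higher and 34 lower, and 10 and 21 of 44 in the transport list. The block raised the calls over all 15347 genes more, to 4860 higher and 5059 lower, against 3285 and 4401 without it. Among the members followed through the alternatives, the block ended the call of Kcnn2 alone. With the same-date libraries summed, Kcnn1, Kcnj12, Kcnip1, Kcng2, Kcnd3, Kcnk3, Kcnip3, Kcna7, Kcnn2 and Kcne4 were not called, with adjusted p between 0.054 and 0.20. Leaving out 1 library gave 11 to 13 higher and 28 to 34 lower channel genes, against 2160 to 3183 and 3915 to 4579 over all genes. Leaving out both libraries of preparation 3 gave 10 and 22 of 69 channel genes, against 1329 and 3300 of all 15480 genes. Of the 27 members named by rule, 17 kept their direction and side of the threshold in every alternative that tested them. Kcnma1, Kcnk2, Kcnab2 and Kcnip2 missed it against a 2-fold change alone, and Kcnn1, Kcnt1, Kcnj12, Kcnip1 and Kcng3 did so as given above. Kcnh2 had a log2 fold change of -0.042 with library totals, a scaling that put the median of all genes at -0.11, against 0.05 with TMM; the cause was not tested. Per kb of coding sequence in place of exon, the leading voltage-gated pore and the leading calcium- or sodium-activated channel were other genes. In the date and kit contrasts no channel gene was called under either alternative run. Depth limits the 23 untested channel genes, and 3 libraries per fraction limit calls of small changes.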
